A study of Homo sapiens with 12 samples.

Results

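The transcription factor ATF4 and 9 genes that it is known to switch on during the integrated stress response were followed in C4-2 cells, a prostate cancer cell line known for growing without androgen. The 10 genes were chosen by name as members of this pathway (ATF4, DDIT3, TRIB3, ASNS, CHAC1, SESN2, DDIT4, STC2, PSAT1 and PPP1R15A), with earlier results of these data known. All 10 were found by Ensembl identifier among the 20308 genes of the expression table. One group of cells overexpressed ALKBH5, an enzyme that removes N6-methyladenosine (m6A) from RNA (oeALKBH5), and the other carried an empty vector (NC). The labels give no other treatment, and they do not give the promoter of the construct, the length of expression or whether a line is 1 clone. The series holds 12 libraries, of which the 6 input libraries, made without m6A pull-down, 3 per group, gave expression values in FPKM (fragments scaled to a transcript's length and the library's mapped total).

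In the integrated stress response, 4 kinases that sense different stresses phosphorylate the translation initiation factor eIF2. Most translation then slows, while the ATF4 mRNA is translated better, so the level of ATF4 mRNA need not follow that of its protein. ATF4 activates genes for amino acid synthesis and uptake, redox balance and feedback, often with partners of the bZIP family, through composite C/EBP-ATF response elements (CARE). Several of its targets also have other inducers, such as hypoxia for DDIT4 and STC2 and p53 for SESN2.

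Of the 10 genes, 4 rose and none fell in oeALKBH5 cells at a limma adjusted p under 0.05, where 5.45% of 12757 tested genes were called, 3.02% higher and 2.43% lower. The 4 were the stress transcription factor DDIT3, the eIF2 phosphatase subunit PPP1R15A, the mTORC1 inhibitor DDIT4 and the secreted glycoprotein STC2. ATF4 itself, TRIB3, CHAC1, SESN2, ASNS and PSAT1 did not pass the test, and the enzymes of amino acid synthesis, ASNS and PSAT1, had lower means in oeALKBH5 cells. Among 29 tested further ATF4 targets, 5 rose, among them NUPR1 and GDF15, 1 fell (CLGN) and 23 were not called, and no amino acid transporter or tRNA synthetase tested was called.

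Promoter sequence is shown for genes of the set with a match to the letters of a response element before their start. These matches can then be set beside the expression values. The 250 bases before the first RefSeq start of each gene were read on GRCh38.p14, whereas the expression values were made on hg19. All 10 genes had such a sequence. The motifs searched on both strands were the CARE core TGATGNAA, the cyclic AMP response element (CRE) TGACGTCA, the core of the hypoxia response element ACGTG, which also lies inside the E-box CACGTG, and the endoplasmic reticulum stress element (ERSE), CCAAT and CCACG with 9 bases between them. Capitals mark the match, and each sequence is on the strand of its gene. The ACGTG match of ATF4, which lay inside an E-box, is not printed.
ASNS, CARE core on the gene's strand, minus strand of chr7:97872444-97872501: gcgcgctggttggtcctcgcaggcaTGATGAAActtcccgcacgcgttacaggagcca
CHAC1, CARE core on the opposite strand, plus strand of chr15:40953237-40953294: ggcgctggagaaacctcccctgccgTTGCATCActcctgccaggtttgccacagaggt
PPP1R15A, CRE, plus strand of chr19:48872338-48872395: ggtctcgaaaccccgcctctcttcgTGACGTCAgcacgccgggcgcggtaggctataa
DDIT4, ACGTG, plus strand of chr10:72273774-72273828: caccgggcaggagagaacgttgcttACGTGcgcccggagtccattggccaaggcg

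The CARE core was found in 2 of the 10 genes, ASNS and CHAC1, and in 2.18% of 14976 genes searched. The CRE was found in 1 gene, PPP1R15A, and in 2.38% of all genes. ACGTG was found in 2 genes, DDIT4 and ATF4, in ATF4 as the E-box, and in 20.9% of all genes. DDIT3, STC2, TRIB3, SESN2 and PSAT1 held none of the 4 motifs in this window. With the motifs pooled, genes with and without a match were found both among those that rose and among those not called. Of the genes that rose, PPP1R15A held the CRE and DDIT4 held ACGTG. None of them held the CARE core, and the 2 genes that did were not called. The ERSE was in none of the 10 genes and in 0.12% of all. A match describes these letters only, and elements outside this window were not searched.

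ALKBH5 itself was checked first, as the gene the construct carries. It had 80.3, 74.3 and 72.5 FPKM in oeALKBH5 replicates 1, 2 and 3, against 64.9, 61.1 and 58.2 FPKM in NC replicates 1, 2 and 3. All 3 oeALKBH5 libraries lay above all 3 NC libraries, but ALKBH5 (log2(FPKM + 1) difference 0.30, SE 0.10) did not pass limma's test over all genes (adjusted p = 0.114; exact permutation test p = 0.1, the smallest that 3 libraries against 3 allow). Sums of FPKM per library ran from 511333 to 512996 in oeALKBH5 and from 514140 to 524905 in NC libraries, and the absolute depth is unknown. Relative to NC replicate 1, depth judged from the commonest ratio among genes under 1 FPKM was 1.07, 0.783 and 0.83 in oeALKBH5 replicates 1, 2 and 3, and 1.13 and 1.00 in NC replicates 2 and 3. Prostate luminal markers were present in every library, with none of 10 below 52.3 FPKM. Of 12 markers of immune, stromal and endothelial cells, 4 to 6 were listed at exactly 0 in each library. Some values of CD68 and LYZ just above 0 are not in that count. The 12 markers summed to between 8.9 and 30.01 FPKM in oeALKBH5 and between 6.35 and 17.9 FPKM in NC libraries. The highest sum, in oeALKBH5 replicate 2, was mostly COL1A1, with 27.6 FPKM. Nothing in the labels says that replicates came from separate cultures. The p-values thus weigh group differences only against the scatter of these libraries, and that scatter may be technical. A lower level in bulk RNA cannot be told apart from fewer cells expressing the gene.

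ATF4 was the most abundant of the 10 mRNAs per length in both groups. It had 302, 314 and 354 FPKM in oeALKBH5 replicates 1, 2 and 3, against 291, 289.8 and 304 FPKM in NC replicates 1, 2 and 3. The groups overlapped, since NC replicate 3 lay above oeALKBH5 replicate 1. The difference on the log2(FPKM + 1) scale was 0.13 (SE 0.07, limma adjusted p = 0.35), with a 95% interval of -0.04 to 0.30. It was 0.06 without oeALKBH5 replicate 3 and 0.22 after quantile normalization, and was not called in either.

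DDIT3 encodes CHOP, a bZIP factor downstream of ATF4 that promotes cell death under lasting stress. Its mRNA had 51, 53.6 and 69.8 FPKM in oeALKBH5 replicates 1, 2 and 3, against 21.9, 31.5 and 21.9 FPKM in NC replicates 1, 2 and 3. Every oeALKBH5 library lay above every NC library, with oeALKBH5 replicate 3 and NC replicate 2 the highest of their groups. DDIT3 rose by 1.19 on the log2 scale (SE 0.18, limma adjusted p = 0.00877), a ratio of means of 2.31. The call was lost without NC replicate 3 (adjusted p = 0.0517), where the difference was 1.10. DDIT3 overlaps MARS1 in the annotation, and, though the library kits keep strand per the labels, whether the quantification used it is not given in the sources used here. MARS1 had 96.6, 69.5 and 112 FPKM in oeALKBH5 replicates 1, 2 and 3, against 108, 118 and 101 FPKM in NC replicates 1, 2 and 3. Within both groups MARS1 was highest in the same library as DDIT3 (oeALKBH5 replicate 3 and NC replicate 2), while its group mean was lower in oeALKBH5 cells and it was not called (limma adjusted p = 0.39). Reads shared between the 2 genes were not tested.

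PPP1R15A encodes GADD34, the stress-induced subunit that directs protein phosphatase 1 to eIF2 and so ends the response. It had 10.1, 12.7 and 13 FPKM in oeALKBH5 replicates 1, 2 and 3, against 4.03, 1.5 and 2.01 FPKM in NC replicates 1, 2 and 3. It was the least abundant of the 10 genes in NC cells but not in oeALKBH5 cells, where CHAC1 was. The rise of 1.94 on the log2 scale (SE 0.29, limma adjusted p = 0.00874) was larger than that of 99.6% of tested genes, and the ratio of means was 4.75. The NC values were low and scattered, with a coefficient of variation of 53%.

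TRIB3, a pseudokinase that restrains ATF4 and DDIT3, had 24.4, 26.2 and 36.8 FPKM in oeALKBH5 replicates 1, 2 and 3, against 30.7, 25.5 and 26.3 FPKM in NC replicates 1, 2 and 3. The groups overlapped, and the highest value was that of oeALKBH5 replicate 3. The log2 difference was 0.06 (SE 0.17, limma adjusted p = 0.871; 95% interval -0.33 to 0.46), and it was -0.11 without oeALKBH5 replicate 3.

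**Figure D1:**
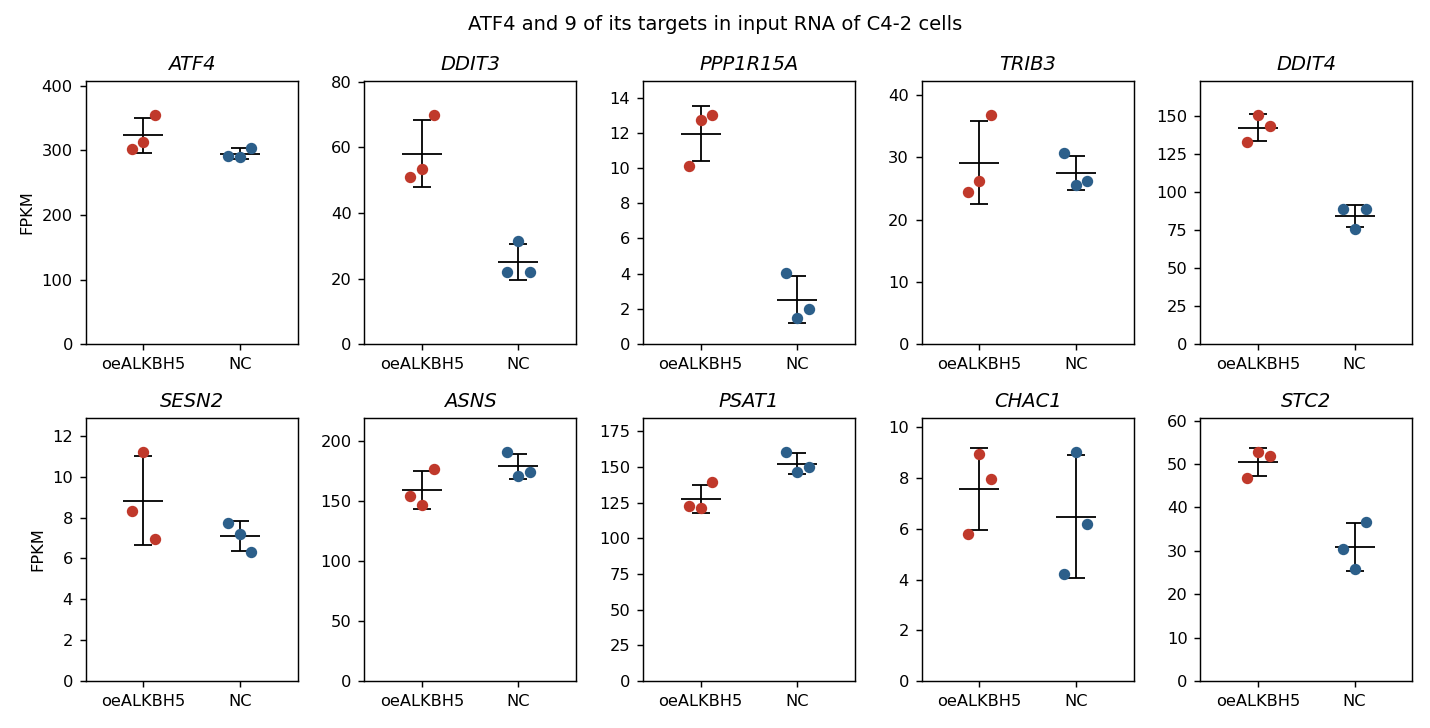
FPKM of ATF4 and 9 of its targets (y axes, each from 0) in 3 oeALKBH5 and 3 NC input libraries; points are libraries, the bar is the mean and the whiskers are 1 SD. The 3 oeALKBH5 libraries lie above the 3 NC libraries for DDIT3, PPP1R15A, DDIT4 and STC2 and below them for PSAT1.

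DDIT4 and SESN2 both restrain the growth kinase mTORC1, DDIT4 through the TSC complex and SESN2 as a leucine sensor that acts on GATOR2. DDIT4 had 133, 151 and 143 FPKM in oeALKBH5 replicates 1, 2 and 3, against 88.8, 75.8 and 88.8 FPKM in NC replicates 1, 2 and 3. The groups were far apart and the libraries within each were close. DDIT4 rose by 0.75 on the log2 scale (SE 0.10, limma adjusted p = 0.00431), a ratio of means of 1.69, and stayed called whichever of the 6 libraries was dropped. SESN2 had 8.32, 11.2 and 6.97 FPKM in oeALKBH5 replicates 1, 2 and 3, against 7.75, 7.2 and 6.3 FPKM in NC replicates 1, 2 and 3. The groups overlapped, and the difference of 0.26 (SE 0.22, limma adjusted p = 0.531; 95% interval -0.24 to 0.77) was 0.10 without oeALKBH5 replicate 2.

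ASNS and PSAT1 are the biosynthetic enzymes of the set; ASNS makes asparagine and PSAT1 carries out the transamination step of serine synthesis. ASNS had 154, 147 and 177 FPKM in oeALKBH5 replicates 1, 2 and 3, against 191, 171 and 175 FPKM in NC replicates 1, 2 and 3. The groups overlapped and the log2 difference was -0.17 (SE 0.09, limma adjusted p = 0.32; 95% interval -0.38 to 0.04). PSAT1 had 123, 121 and 139 FPKM in oeALKBH5 replicates 1, 2 and 3, against 160.4, 146 and 150.1 FPKM in NC replicates 1, 2 and 3. All 3 oeALKBH5 libraries lay below all 3 NC libraries, but the log2 difference of -0.25 (SE 0.09, 95% interval -0.45 to -0.06) did not pass the test over all genes (limma adjusted p = 0.128). RefSeq names 4 pseudogenes of ATF4, 5 of ASNS and 4 of PSAT1, so reads shared with such copies make small differences of these 3 genes less certain.

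CHAC1 is an enzyme that breaks down glutathione and is known as a sensitive ATF4 target, and STC2 encodes stanniocalcin 2, a secreted glycoprotein. CHAC1 had 5.79, 8.96 and 7.95 FPKM in oeALKBH5 replicates 1, 2 and 3, against 4.2, 9.03 and 6.2 FPKM in NC replicates 1, 2 and 3. The highest and the lowest value were both in NC cells, and the log2 difference was 0.23 (SE 0.29, limma adjusted p = 0.687; 95% interval -0.42 to 0.88), or -0.006 without NC replicate 1. STC2 had 46.7, 52.7 and 51.7 FPKM in oeALKBH5 replicates 1, 2 and 3, against 30.5, 25.7 and 36.6 FPKM in NC replicates 1, 2 and 3. The groups did not overlap. STC2 rose by 0.70 on the log2 scale (SE 0.15, limma adjusted p = 0.0307), a ratio of means of 1.63. Its call was the least stable of the 4: it was lost without oeALKBH5 replicate 1 (adjusted p = 0.0648), oeALKBH5 replicate 2 (0.0955), oeALKBH5 replicate 3 (0.0976), NC replicate 1 (0.0833) and NC replicate 2 (0.0852).

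The groups did not overlap in 5 of the 10 genes, 4 higher and 1 lower, against 28.1% of all tested genes, 15.1% higher and 13% lower. The median log2 difference of the 10 genes was 0.25, and that of all tested genes was 0.02. Within groups, oeALKBH5 replicate 3 had the highest value of 6 genes (ATF4, DDIT3, TRIB3, ASNS, PSAT1 and PPP1R15A), oeALKBH5 replicate 1 had the lowest of 7, and NC replicate 2 had the lowest of 7. The coefficient of variation of the 10 genes ran from 6.26% to 24.5% in oeALKBH5 and from 2.76% to 53% in NC cells.

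**Figure D2:**
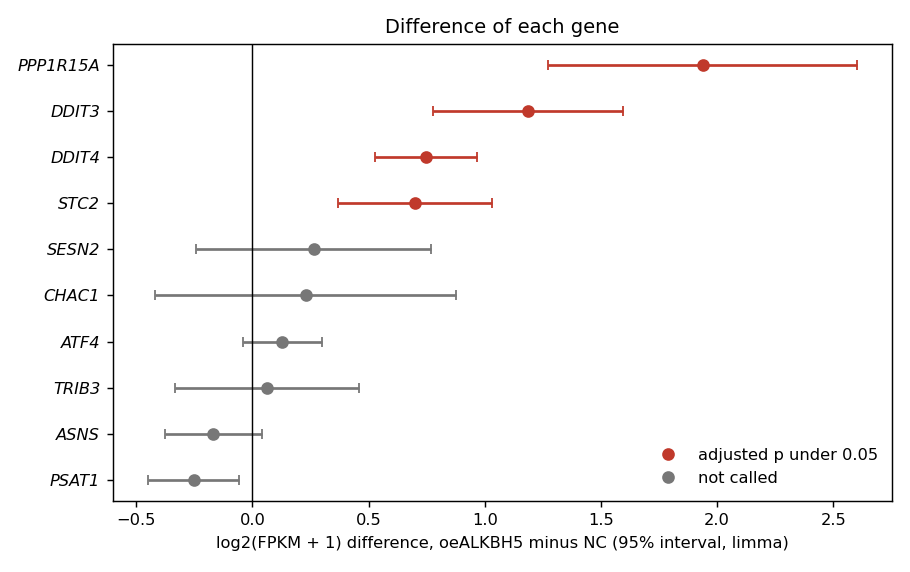
Difference of each gene between oeALKBH5 and NC on the log2(FPKM + 1) scale (x axis; positive is higher in oeALKBH5), with the 95% interval from limma. The intervals of PPP1R15A, DDIT3, DDIT4 and STC2 lie above 0 with adjusted p under 0.05 (red); the other 6 genes (grey) were not called, and the interval of PSAT1 lies below 0.

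ATF4 and ASNS came first in both groups, and the order of levels per length below them differed, down to the last gene. In oeALKBH5 cells it ran ATF4, ASNS, DDIT4, PSAT1, DDIT3, STC2, TRIB3, PPP1R15A, SESN2 and CHAC1, and in NC cells ATF4, ASNS, PSAT1, DDIT4, STC2, TRIB3, DDIT3, SESN2, CHAC1 and PPP1R15A. Neighbours whose libraries overlapped in oeALKBH5 cells were ASNS and DDIT4, DDIT4 and PSAT1, DDIT3 and STC2, PPP1R15A and SESN2, and SESN2 and CHAC1. In NC cells they were STC2 and TRIB3, TRIB3 and DDIT3, and SESN2 and CHAC1.

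Ratios within a library depend little on how libraries are scaled, and 6 were computed, each of a gene to a paralogue or partner. PPP1R15B, the constitutive counterpart of PPP1R15A, had 41.4 ± 2.73 FPKM in oeALKBH5 and 37.7 ± 2.33 FPKM in NC cells (SD, n = 3 each) and was not called. The log2 ratio of PPP1R15A to PPP1R15B was -1.86, -1.59 and -1.70 in oeALKBH5 replicates 1, 2 and 3, against -2.92, -3.88 and -3.78 in NC replicates 1, 2 and 3. It was higher by 1.81 in oeALKBH5 cells with no overlap (exact permutation test, two-sided p = 0.1, the smallest possible here). The log2 ratio of DDIT3 to ATF4 was -2.54, -2.53 and -2.33 in oeALKBH5 replicates 1, 2 and 3, against -3.67, -3.16 and -3.73 in NC replicates 1, 2 and 3, a difference of 1.06, also with no overlap (exact permutation p = 0.1). The ratio of PSAT1 to PHGDH, the first enzyme of serine synthesis, was -0.07 ± 0.11 in oeALKBH5 and -0.07 ± 0.11 in NC cells (log2, SD, n = 3 each; exact permutation p = 1). The ratios of SESN2 to SESN1, CHAC1 to CHAC2 and STC2 to STC1 differed by 0.43, 0.41 and 0.08 with overlapping groups (exact permutation p = 0.4, 0.6 and 0.9). With no p under 0.1 possible, none of the 6 could pass a threshold of 0.05 before or after adjustment.

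**Figure D3:**
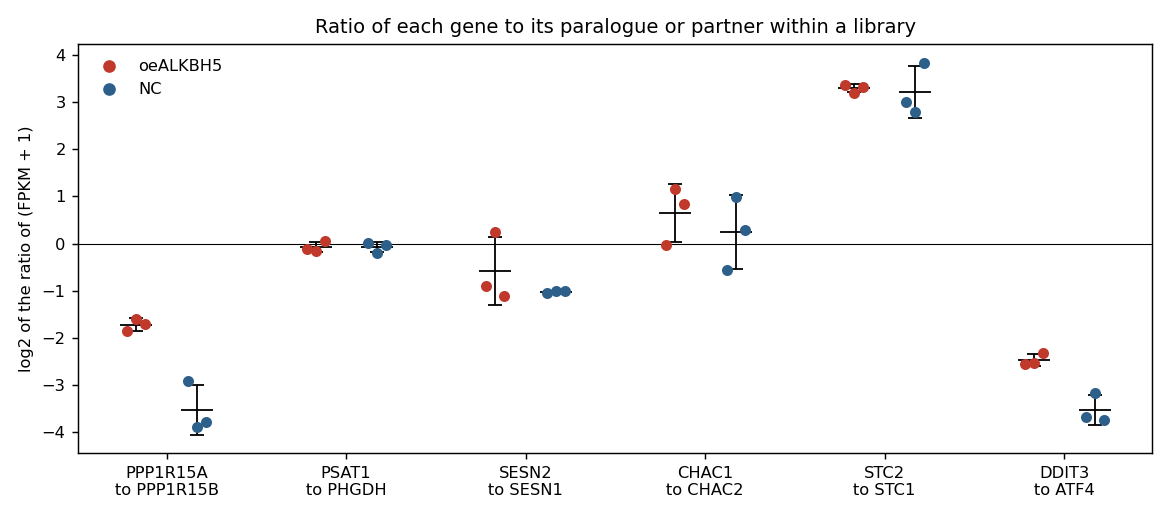
Log2 of the ratio of FPKM + 1 of 2 genes within each library (y axis) for 6 pairs; points are oeALKBH5 (red) and NC (blue) libraries, bars are means and whiskers 1 SD. PPP1R15A to PPP1R15B and DDIT3 to ATF4 separate the groups, and the other 4 ratios overlap.

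Upstream of ATF4, none of the 12 kinases, phosphatase subunits and their regulators passed the test, where 5.45% of all tested genes did. EIF2AK3 (PERK), which senses endoplasmic reticulum stress, had 34.2, 27.3 and 21.1 FPKM in oeALKBH5 replicates 1, 2 and 3, against 15.4, 14.9 and 25.6 FPKM in NC replicates 1, 2 and 3 (log2 difference 0.56, SE 0.24, limma adjusted p = 0.224). The double-stranded RNA sensor EIF2AK2 (PKR) had 12.6, 20.9 and 22.5 FPKM in oeALKBH5 replicates 1, 2 and 3, against 26.4, 21.6 and 28.9 FPKM in NC replicates 1, 2 and 3 (log2 difference -0.47, SE 0.22, limma adjusted p = 0.263). For both kinases the groups overlapped. EIF2AK4 (GCN2), the sensor of uncharged tRNA, had 28.4 ± 2.04 FPKM in oeALKBH5 and 29.8 ± 1.2 FPKM in NC cells, and EIF2AK1 (HRI), the haem-regulated kinase, had 71.7 ± 8.63 FPKM in oeALKBH5 and 69.2 ± 7.74 FPKM in NC cells (SD, n = 3 each). The adaptor NCK1 came nearest to the threshold, with 49.1 ± 4.03 FPKM in oeALKBH5 and 35.5 ± 3.51 FPKM in NC cells (limma adjusted p = 0.0714).

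Of 11 genes for eIF2, its exchange factor eIF2B and related factors, 1 was called, the eIF2 gamma subunit EIF2S3, with 196 ± 4.43 FPKM in oeALKBH5 and 161 ± 5.38 FPKM in NC cells (SD, n = 3 each; log2 difference 0.29, SE 0.07, limma adjusted p = 0.0491). Dropping any one library ended that call, with the highest adjusted p, 0.156, without NC replicate 3. The list median was -0.10, and 5.45% of all tested genes were called. The alpha subunit EIF2S1, the phosphorylated one, had 93.1, 69.4 and 76.4 FPKM in oeALKBH5 replicates 1, 2 and 3, against 113, 114 and 95 FPKM in NC replicates 1, 2 and 3. Its groups did not overlap, but it was not called (limma adjusted p = 0.0922), nor were the eIF2B subunits EIF2B4 (adjusted p = 0.117) and EIF2B3 (adjusted p = 0.127).

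Among 12 tested bZIP partners and regulators of ATF4, 3 rose and none fell, with a list median of 0.34. Over all tested genes, 3.02% were called higher and 2.43% lower. ATF3, a target and partner of ATF4, had 51.5, 62 and 64.7 FPKM in oeALKBH5 replicates 1, 2 and 3, against 17.4, 18.8 and 15.8 FPKM in NC replicates 1, 2 and 3 (log2 difference 1.72, SE 0.14, limma adjusted p = 0.000362). MAFF, a small MAF factor, had 7.05, 8.13 and 3.63 FPKM in oeALKBH5 replicates 1, 2 and 3, against 0.502, 0.592 and 0.503 FPKM in NC replicates 1, 2 and 3 (limma adjusted p = 0.00766). FOS, an AP-1 subunit induced by many stimuli beside this pathway, had 8.72, 5.28 and 6.36 FPKM in oeALKBH5 replicates 1, 2 and 3, was listed at 0 in NC replicate 1 and had 2.2 and 0.173 FPKM in NC replicates 2 and 3 (limma adjusted p = 0.0235). Dropping any one library other than NC replicate 2 ended the FOS call (highest adjusted p 0.103, without NC replicate 3), as did a pseudocount of 0.1, no filter, no intensity trend and the replicate block. CEBPB, a C/EBP partner of ATF4 at CARE sites, had 29.1 ± 4.18 FPKM in oeALKBH5 and 18.9 ± 1.05 FPKM in NC cells (SD, n = 3 each), with no overlap, and narrowly missed the threshold (limma adjusted p = 0.0538).

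Of 29 tested further ATF4 targets, 5 rose and 1 fell, and the remaining 23 were not called, with a list median of 0.08. The shares over all tested genes were 3.02% called higher and 2.43% called lower. NUPR1, a small stress-induced chromatin protein, had 251, 246 and 275 FPKM in oeALKBH5 replicates 1, 2 and 3, against 64.8, 78.3 and 64 FPKM in NC replicates 1, 2 and 3 (log2 difference 1.89, SE 0.10, limma adjusted p = 3.46e-05). The groups lay far apart. GDF15, a secreted stress cytokine that p53 also induces, had 163, 191 and 172 FPKM in oeALKBH5 replicates 1, 2 and 3, against 69.7, 62.1 and 56.3 FPKM in NC replicates 1, 2 and 3 (log2 difference 1.47, SE 0.11, limma adjusted p = 2.09e-04). SESN3, a relative of SESN2 under FOXO control, had 142, 182 and 148 FPKM in oeALKBH5 replicates 1, 2 and 3, against 79.7, 78.1 and 72.6 FPKM in NC replicates 1, 2 and 3 (limma adjusted p = 0.00181). It was many times more abundant per length than SESN2. The angiogenic factor VEGFA, also a hypoxia target, had 128 ± 19 FPKM in oeALKBH5 and 47.3 ± 10.5 FPKM in NC cells (SD, n = 3 each; limma adjusted p = 0.00348). The last of the 5 was KLHL24, a ubiquitin ligase adaptor, with 39.5 ± 6.45 FPKM in oeALKBH5 and 17.7 ± 6.13 FPKM in NC cells (limma adjusted p = 0.0317). Its call ended when any one library other than NC replicate 2 was dropped (highest adjusted p 0.11, without oeALKBH5 replicate 2), and with no filter or no intensity trend. The gene that fell was the chaperone CLGN, with 8.56 ± 0.944 FPKM in oeALKBH5 and 19.2 ± 0.636 FPKM in NC cells (limma adjusted p = 0.00877). KLHL24 and CLGN were named after their values were seen. VEGFA is counted again among hypoxia targets, GDF15 among p53 targets and SESN3 among relatives of the 10 genes.

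**Figure D4:**
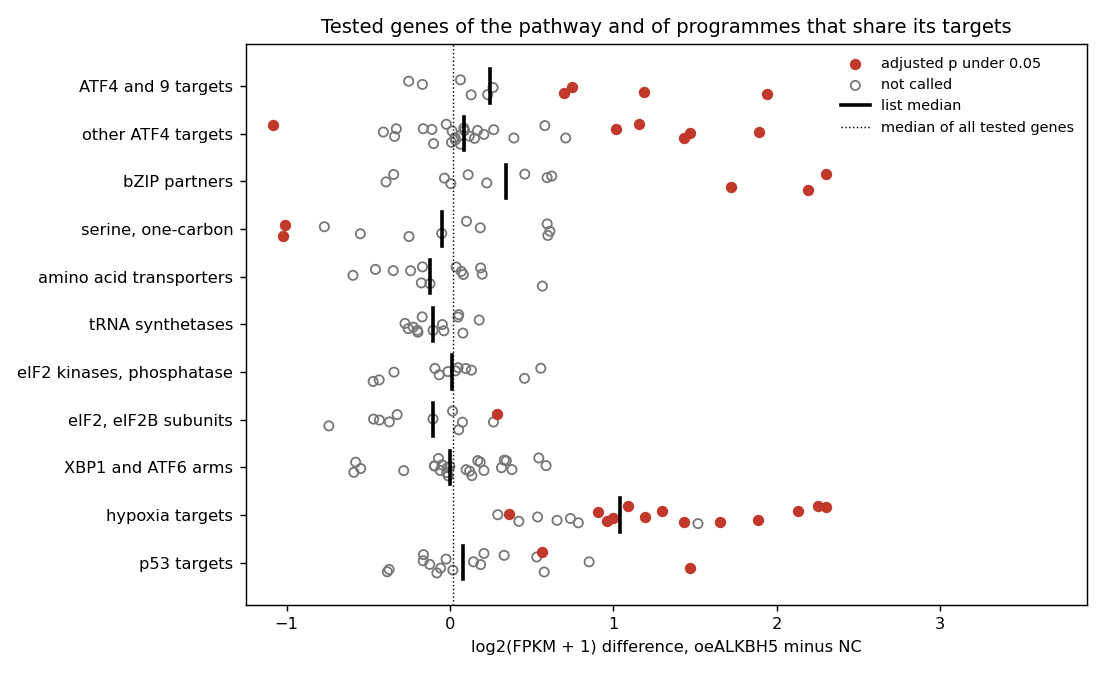
Log2(FPKM + 1) difference, oeALKBH5 minus NC (x axis), of each tested gene in 11 lists (rows; vertical jitter has no meaning); filled red points have a limma adjusted p under 0.05, black bars are list medians and the dotted line is the median of all tested genes. Hypoxia targets have a median of 1.04, whereas amino acid transporters, tRNA synthetases, kinases and the XBP1 and ATF6 arms have medians between -0.12 and 0.01 and no called gene. Of all tested genes, 5.45% were called.

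Enzymes of serine and one-carbon metabolism around PSAT1 included no called rise. Of 11 tested, 2 fell, with a list median of -0.05, where 2.43% of all tested genes were called lower. PSPH, the last enzyme of serine synthesis, had 26.7, 42.5 and 36.1 FPKM in oeALKBH5 replicates 1, 2 and 3, against 73.7, 62.1 and 75.9 FPKM in NC replicates 1, 2 and 3 (log2 difference -1.01, SE 0.17, limma adjusted p = 0.0134). Its call was lost without oeALKBH5 replicate 3, NC replicate 1 or NC replicate 3 (highest adjusted p 0.0754, on dropping NC replicate 3). The other was TYMS, which uses a one-carbon unit to make thymidylate and is also a gene of DNA replication, with 55.6 ± 3.94 FPKM in oeALKBH5 and 114 ± 11.3 FPKM in NC cells (SD, n = 3 each; limma adjusted p = 0.00162). PHGDH had 133, 136 and 134 FPKM in oeALKBH5 replicates 1, 2 and 3, against 160.1, 168 and 153 FPKM in NC replicates 1, 2 and 3, without overlap, and was not called (log2 difference -0.25, SE 0.07, limma adjusted p = 0.0909). Thus all 3 enzymes of the serine synthesis route, PHGDH, PSAT1 and PSPH, had every oeALKBH5 library below every NC library, of which PSPH was called. MTHFD1 was not called either, with 82.2 ± 19.1 FPKM in oeALKBH5 and 119 ± 5.58 FPKM in NC cells (limma adjusted p = 0.071).

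None of 13 tested amino acid transporters was called (list median -0.12), where 5.45% of all tested genes were. Groups did not overlap in 3 of the 13, near the 28.1% of all tested genes. SLC7A5, the light chain of the leucine transporter, had 19.8, 17.7 and 23.5 FPKM in oeALKBH5 replicates 1, 2 and 3, against 31.2, 29 and 32.8 FPKM in NC replicates 1, 2 and 3 (log2 difference -0.59, SE 0.15, limma adjusted p = 0.0527). Its heavy chain partner SLC3A2 had 165 ± 3.67 FPKM in oeALKBH5 and 145 ± 9.51 FPKM in NC cells, and the glutamine carrier SLC38A2 had 211 ± 7.15 FPKM in oeALKBH5 and 184 ± 8.81 FPKM in NC cells (SD, n = 3 each; limma adjusted p = 0.206 for SLC3A2 and 0.151 for SLC38A2). None of 13 tRNA synthetase and tRNA export genes of the ATF4 programme was called (list median -0.10). The tRNA exporter XPOT had 124 ± 8.31 FPKM in oeALKBH5 and 151 ± 11.7 FPKM in NC cells, and alanyl-tRNA synthetase AARS1 had 88.3 ± 7.71 FPKM in oeALKBH5 and 103 ± 5.89 FPKM in NC cells (limma adjusted p = 0.12 for XPOT and 0.218 for AARS1).

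The other arms of the unfolded protein response, run by XBP1 and ATF6, had no called gene among 25 tested and a list median of -0.001. Of all tested genes, 5.45% were called. HSPA5, the chaperone BiP, had 215, 271 and 328 FPKM in oeALKBH5 replicates 1, 2 and 3, against 188, 226 and 204 FPKM in NC replicates 1, 2 and 3 (log2 difference 0.38, SE 0.14, limma adjusted p = 0.161). HERPUD1, which aids degradation at the endoplasmic reticulum, had 109, 171 and 188 FPKM in oeALKBH5 replicates 1, 2 and 3, against 88.9, 123 and 102 FPKM in NC replicates 1, 2 and 3 (limma adjusted p = 0.155), and was called when oeALKBH5 replicate 1 was dropped. For both genes the groups overlapped and oeALKBH5 replicate 3 was highest of its group, as it was for 6 of the 10 genes. How often that library was highest over all genes was not counted. SDF2L1 leaned the other way, with 9.68 ± 0.775 FPKM in oeALKBH5 and 15.5 ± 5.2 FPKM in NC cells (SD, n = 3 each). Its groups did not overlap and it was not called (limma adjusted p = 0.208). In this list 1 gene was higher and 2 were lower without overlap, against 15.1% and 13% of all tested genes.

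Programmes that share inducers with DDIT4, STC2 and SESN2 were counted beside them. Of 20 hypoxia targets, 13 rose and none fell, with a list median of 1.04, where 3.02% of all tested genes were called higher. This list, like the others, was chosen with earlier results of these data known. VEGFA is counted both here and among the further ATF4 targets. NDRG1, a hypoxia-induced gene, had 277 ± 28.6 FPKM in oeALKBH5 and 62.6 ± 8.01 FPKM in NC cells (SD, n = 3 each). Of 18 p53 targets 2 rose, GDF15 and CDKN1A, with a list median of 0.08. CDKN1A, the cyclin kinase inhibitor p21, had 59.4 ± 2.85 FPKM in oeALKBH5 and 40.1 ± 4.73 FPKM in NC cells (SD, n = 3 each; limma adjusted p = 0.0323). Its call ended when any one library other than NC replicate 1 was dropped (highest adjusted p 0.118, without NC replicate 3). The part of hypoxia targets in the rises of DDIT4, STC2 and VEGFA was not tested. Of 18 tested genes of mTORC1 control, the pathway that DDIT4 and SESN2 restrain, none was called (list median -0.05). MIOS, a GATOR2 subunit, had 20.7 ± 5.19 FPKM in oeALKBH5 and 32.5 ± 4.46 FPKM in NC cells, and the kinase gene MTOR had 24.1 ± 0.918 FPKM in oeALKBH5 and 31.3 ± 3.31 FPKM in NC cells (SD, n = 3 each; limma adjusted p = 0.0943 for MIOS and 0.154 for MTOR).

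Among 10 relatives of the genes, 1 was called, SESN3, where 5.45% of all tested genes were called. SESN3 is also counted among the further ATF4 targets. DDIT4L, a relative of DDIT4, had 7.08, 6.08 and 8.3 FPKM in oeALKBH5 replicates 1, 2 and 3, against 4.35, 3.71 and 3.37 FPKM in NC replicates 1, 2 and 3, and STC1, a relative of STC2, had 3.67, 4.89 and 4.26 FPKM in oeALKBH5 replicates 1, 2 and 3, against 2.91, 2.89 and 1.64 FPKM in NC replicates 1, 2 and 3. Both were without overlap and not called (limma adjusted p = 0.0912 for DDIT4L and 0.226 for STC1). SESN1 had 14 ± 3.98 FPKM in oeALKBH5 and 15.4 ± 1.71 FPKM in NC cells, and CHAC2 had 4.5 ± 1.3 FPKM in oeALKBH5 and 5.2 ± 1.36 FPKM in NC cells (SD, n = 3 each). ASNSD1, named for its similarity to ASNS, had 35.3 ± 3.4 FPKM in oeALKBH5 and 49 ± 1.72 FPKM in NC cells (limma adjusted p = 0.0527).

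The genes outside the set whose profile over the 6 libraries lay nearest to the mean profile of the 10 genes, by root mean square difference of centred log2(FPKM + 1) among 11957 genes averaging 1 FPKM or more, were PRR36 (0.0446), ZNF140 (0.0542), ZNF597 (0.0543), ENDOD1 (0.0558) and EFCAB14 (0.0601). ENDOD1 had 223, 259 and 241 FPKM in oeALKBH5 replicates 1, 2 and 3, against 170.4, 173 and 170.5 FPKM in NC replicates 1, 2 and 3. Since the mean profile averages 4 genes that rose with 6 that were not called, likeness to it means a modest step between groups, of 0.46 to 0.49 on the log2 scale in these 5 genes.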

How the data were processed

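RNA depleted of ribosomal RNA was sequenced from 3 oeALKBH5 and 3 NC input samples. Per the submitters' processing notes, the tools were HISAT2 2.0.4, cutadapt 1.9.3, Cufflinks and Cuffdiff, and the build hg19. Gene values are FPKM made by the authors; no header states this unit, which was inferred from those tools and the values. Peak lists of the 6 IP samples were not used here, since they hold no gene names and no hg19 annotation was used.

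A symbol was found for 19434 of 20308 genes. Genes averaging 0.5 FPKM or more, 12757 in all and including the 10 described, were tested on the log2(FPKM + 1) scale by limma 3.58.1 (R 4.3.3) with its variance trend and no replicate block. P-values were two-sided, with Benjamini-Hochberg adjustment over the tested genes and a threshold of 0.05. This scale understates the change of low genes. Ratios and ALKBH5 had exact permutation tests (scipy 1.17.1, Python 3.11.15). Sequences came from RefSeq on GRCh38.p14, from the first start listed per gene. Alternatives changed the pseudocount, filter, trend, scaling, replicate block and libraries used. The model was tested on simulated data.

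The genes and the 15 lists were chosen with earlier results of these data known; 3 of 223 listed genes were not matched. The genes to name were the 10 genes, up to 4 per list with the smallest p, all eIF2 kinases, partners in the ratios and the 5 nearest profiles, of which the text gives most.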

Additional observations from a re-analysis of the deposited data

How the results depend on the processing

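DDIT3, PPP1R15A and DDIT4 remained called higher under every change of pseudocount, filter, trend, scaling and block, in part narrowly. Their highest limma adjusted p was 0.0464 for DDIT3 and 0.0483 for DDIT4, with no trend, and 0.0422 for PPP1R15A, with no filter. With 1 library left out, PPP1R15A reached 0.0494, without NC replicate 3. The STC2 call (log2 difference 0.70) was lost with no filter (limma adjusted p = 0.0714), no intensity trend (0.0861) and the replicate block (0.0661). Same-numbered libraries did not deviate together (r = -0.02, -0.02 and 0.03), so the numbers were not taken as pairs; the block changed no other call among the 10 genes. Over all genes, 385 calls higher became 198 with no trend and 203 with the block, and 310 calls lower became 163 with no filter, 72 with no trend and 141 with the block. Called eIF2 and eIF2B genes fell to 0 with a pseudocount of 0.1, no trend, median ratio scaling and the block. Called serine and one-carbon genes (lower) were 1 with no filter and with no trend, and called p53 targets were 1 with no filter, no trend and the block. Median ratio scaling gave 1 amino acid transporter and 1 relative called lower, SLC7A5 and ASNSD1. The STC2 to STC1 ratio difference was -0.0796 with a pseudocount of 0.1. With 1 library left out, log2 differences ran from 0.06 to 0.18 for ATF4, from 1.05 to 1.35 for DDIT3, from 0.58 to 0.82 for STC2, from -0.11 to 0.18 for TRIB3 and from -0.006 to 0.47 for CHAC1. Ratio differences ran from -0.0661 to 0.0434 for PSAT1 to PHGDH and from -0.13 to 0.40 for STC2 to STC1. Calls ran from 138 to 210 higher and from 68 to 188 lower over all genes, 0 in each fit for eIF2 and eIF2B, 1 to 3 lower for serine and one-carbon enzymes, 1 to 2 for p53 targets and 0 to 1 for the XBP1 and ATF6 arms. The cause of these shifts was not tested. With 3 libraries per group, a gene that was not called is not shown to be unchanged. Depth is unknown, which limits what can be said of genes at a few FPKM, such as CHAC1 and PPP1R15A in NC cells.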
